A study of Drosophila melanogaster with 57 samples.

Results

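In adult Drosophila melanogaster, 7 of the 17559 genes listed, near absent in some strains of a hydrogen sulfide study and plainly transcribed in others, are described here. They are CG32379, CG11034, a5, CG43055, CG33640, CG43659 and CG13675. They were chosen from their counts as the genes with the most complete differences from the control strain in whole bodies of 1 sex. Females chose CG32379 and CG43055 (double deletions) and CG11034 (MST-/-), and males chose CG13675 and a5 (double deletions), CG43659 (CSE-/- and double deletion 2) and CG33640 (double deletion 1). In the choosing sex the values below are therefore a description with no test, and tests are given in the other sex and in thoraxes. The question that related lines put to such genes is whether a state goes with the deleted enzyme or with the descent of the line.

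Cystathionine beta-synthase (CBS, Cbs in the files) and cystathionine gamma-lyase (CSE, Cth) carry sulfur from homocysteine to cysteine, and both can release hydrogen sulfide, as can mercaptopyruvate sulfurtransferase (MST, CG12279). CG32379 lies in a tandem array of M14 metallocarboxypeptidases, a family that trims residues from the carboxyl end of peptides and includes secreted enzymes of the gut. CG11034 belongs to the dipeptidyl peptidase IV family of serine peptidases, which cleave short units from the amino end of peptides. The a5 protein is a phosphatidylethanolamine-binding protein first known from the antenna, where odorant-binding proteins fill the fluid around olfactory neurons.

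The series held 57 poly(A) RNA libraries in 19 groups of 3, from flies aged 5 days and kept at 23 °C. Whole bodies of both sexes came from 7 strains. The control was stock 58492, which carries a Cas9 transgene driven by the Act5C promoter and a DNAlig4 mutation, and in which the deletions were made by inserting an mCherry reporter. The other strains were CBS-/-(5) and CBS-/-(8), 2 separate deletions of Cbs, then CSE-/- (labelled CSE(8)), MST-/-, and 2 double deletions of Cbs and Cth. Double deletion 1 was derived from CBS-/-(5) and double deletion 2 from CBS-/-(8), each by 5 crosses with the CSE-/- line that also passed through balancer stocks. Thoraxes were taken from control and CBS-/-(5) flies of both sexes. A further male group carried the label of double deletion 2 backcrossed on yw. Flies injected for the CSE and MST deletions were crossed to a yw laboratory strain, so in a comparison with the control a deletion and the chromosomes of another stock cannot be told apart. Nothing in the labels says whether the 3 libraries of a group came from separate cultures, and p-values measure only the spread between them.

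Library totals were 9705034 to 31616200 counts, except for the third backcross library with 7321, in which all 7 genes were at 0 and which is left out of every mean. Levels are CPM (counts scaled to the same total of assigned reads in every library), and 3 counts, the floor used below for an absent transcript, were worth 0.0949 to 0.309 CPM. Of the deleted genes, Cbs was at 0.077 to 1.36 CPM in the 24 libraries of Cbs-lacking strains and at 46.8 to 217 CPM in the other whole bodies. CG12279 was at 0.977 to 2.88 CPM in MST-/- and at 9.6 to 18.1 in the other strains. Cth was at 6.61 to 9.38 CPM in females of CSE-/- and the double deletions against 98.2 to 126 in other females, and at 3.14 to 3.95 CPM in double deletion males against 56.7 to 162 in males with the gene. CSE-/- males stood between, at 15.4 to 26.5 CPM, so their label is met only in part. The 2 usable libraries labelled backcross expressed both genes, with Cbs at 33.3 and 34.4 CPM and Cth at 32.7 and 45.4 CPM. These levels lay below those of males with the genes, at 46.8 to 61.5 CPM for Cbs and 56.7 to 162 for Cth. How many intact copies these flies carried is not known here. Defining markers of the antenna were low in the Cbs-lacking strains, and digestive midgut genes were high in them. Ovary and yolk transcripts varied among male libraries. Summed ovary markers ran from 239 to 568 CPM in control males and 508 to 999 in CSE-/-. They ran from 65.6 to 1990 CPM in CBS-/-(5) males and 55.1 to 2330 in CBS-/-(8). In double deletion males they were at 24.5 to 50.7 CPM, and in MST-/- males at a mean of 40.9. All 5 ovary and 3 yolk markers were called lower than control in males of both double deletions. The part of female RNA in male levels and changes was not tested. Summed accessory gland markers, of males, ran from 0.0444 to 96.9 CPM in double deletion 1 females. In whole females of the other strains they were at most at 0.395 CPM. The part of male RNA in the levels and states of double deletion 1 females was not tested. Thorax libraries also held eye genes, at a summed 1410 to 11800 CPM against 743 to 6500 CPM in whole bodies. Summed midgut markers were at 2700 to 35500 CPM in thoraxes, both ends among control females, and at 1250 to 7340 CPM in whole bodies. The part of head and gut RNA in the thorax levels below was not tested.

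A gene is called off in a group when every library held 3 counts or fewer, and on when every library was at 1 CPM or above. Over the 19 groups CG32379 was on in 13 and off in 3, CG11034 on in 13 and off in 3, and CG43055 on in 13 and off in 4. The a5 gene was on in 7 groups and off in 7. CG13675 was on in 5 and off in 13, CG33640 on in 3 and off in 15, and CG43659 on in 2 and off in 15. Compared per kilobase of exon, so that genes can be set beside each other, the highest group mean was 185 CPM per kb for CG43055, in control males, and 26.1 for CG11034 in CBS-/-(8) females (26.8 in the libraries labelled backcross). It was 23.9 CPM per kb for CG43659, 18.3 for a5, 11.3 for CG33640, 7.64 for CG32379 and 5.23 for CG13675 in double deletion 1 males (5.83 in the libraries labelled backcross).

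**Figure D1:**
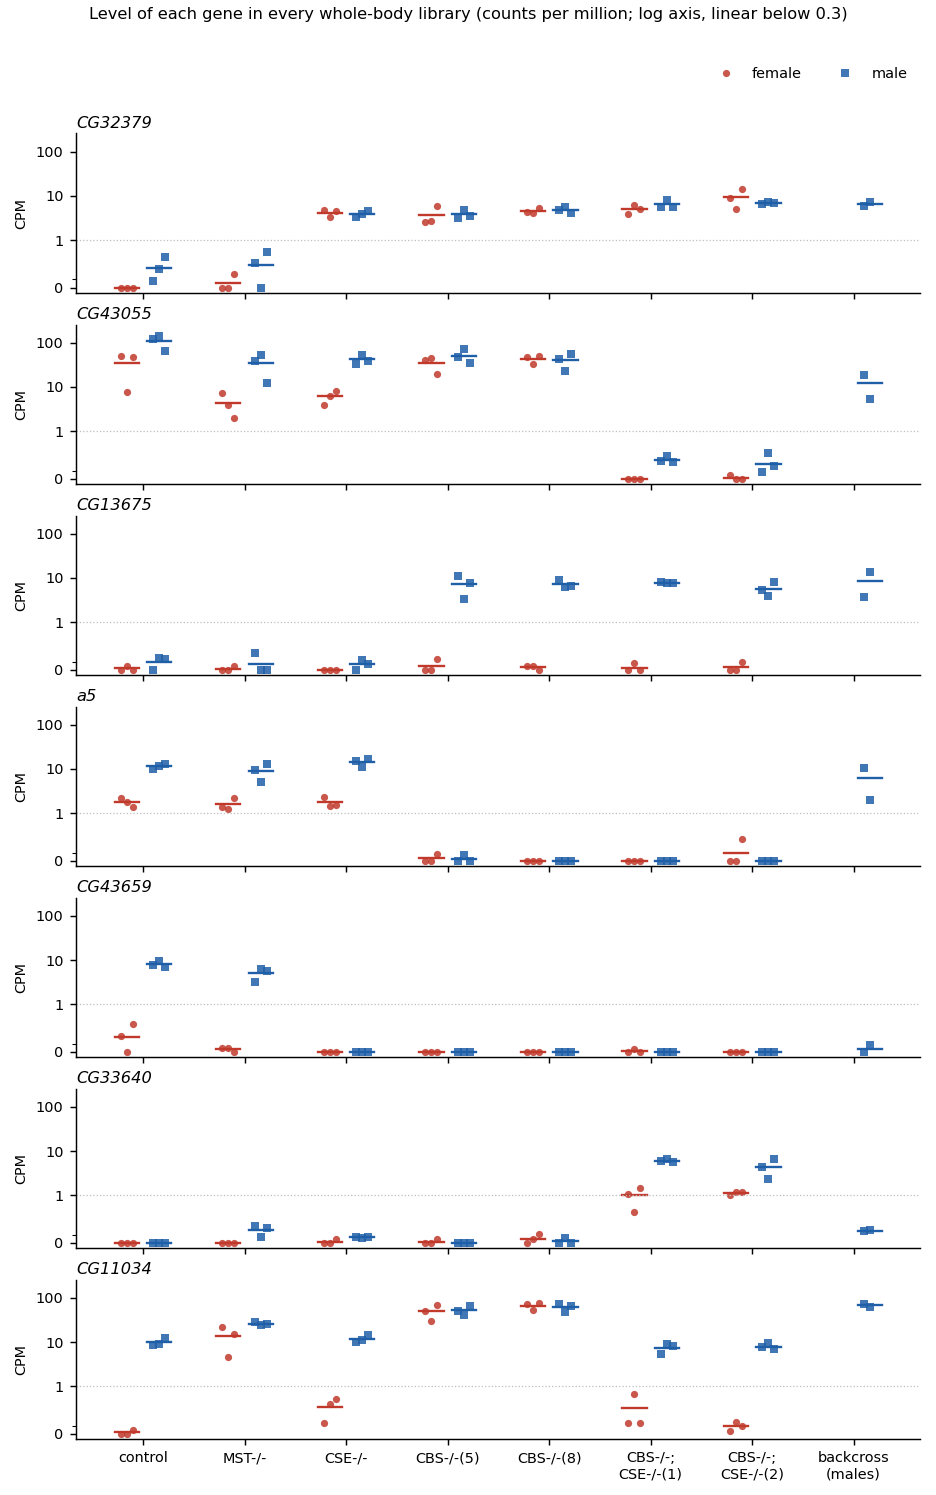
CPM of the 7 genes in each whole-body library (y axis logarithmic above 0.3 CPM and linear below), by strain and sex; circles are female and squares male libraries, short lines group means, and the dotted line marks 1 CPM. The 2 CBS-/- strains share every state. CG33640 is above 0.206 CPM in the 2 double deletions (CBS-/-;CSE-/- on the axis) and in no other strain, and CG43055 is at most at 0.317 CPM there and at 1.94 CPM or more in the others.

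States ran in blocks along the strains. CBS-/-(5) and CBS-/-(8) shared the state of 7 of 7 genes in both sexes, and the double deletions shared 7 of 7 in males and 4 of 7 in females, with none on in one and off in the other. Control and MST-/- shared 7 of 7 in males and 4 of 7 in females. The double deletions did not always have a state of a parent. In males of both, 3 genes had the state of both parents (CG32379, CG43659 and CG11034), 2 that of the CBS-/- parent alone (a5 and CG13675), and 2 the state of neither (CG33640 and CG43055). In females double deletion 1 had 3 genes like both parents, 1 like CBS-/-(5) alone, 1 like CSE-/- alone and 2 like neither (CG33640 and CG43055). Double deletion 2 females had 3 like both and 4 like neither (CG11034, CG33640, CG43055 and a5), with CG33640 and CG43055 opposite to both. The libraries labelled backcross shared 6 of 7 states with CSE-/-, CBS-/-(5) and CBS-/-(8) and 4 of 7 with double deletion 2, the strain of their label.

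Tests used edgeR's quasi-likelihood method with Benjamini-Hochberg adjustment over all genes. Of the 3 genes chosen in females, males showed 2 of 3 called against control in MST-/- (all genes, 1.54%), 1 in CSE-/- (3.71%), 2 in CBS-/-(5) (32.7%), 3 in CBS-/-(8) (32.3%), 2 in double deletion 1 (12.7%) and 2 in double deletion 2 (18.0%). Of the 4 genes chosen in males, CG13675 and CG43659 did not pass the female filter on low counts. The 2 that did were a5 and CG33640. Of these, 0 were called in MST-/- females (all genes, 0.891%) and 0 in CSE-/- (2.73%), 1 in each of CBS-/-(5) (15.2%) and CBS-/-(8) (24.6%), and both in double deletion 1 (30.8%) and double deletion 2 (66.3%). The backgrounds are high where many genes changed, and the members' counts are read only as which gene passed where. CG32379 and CG43055 in males, a5 and CG33640 in females, and CG32379, CG43055 and CG11034 in thoraxes passed the filter only through the groups where they are high. A difference between some libraries was therefore given for them, and their p-values set it against the spread of replicates and support nothing further.

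CG32379 (FBgn0052379, 3L:7396355-7398208, plus strand, dm6, 2 exons) was near absent in control and MST-/- flies and present in CSE-/- and all 4 Cbs-lacking strains. In females, which chose it, all 3 control libraries were at 0 and MST-/- libraries at 0, 0 and 0.169 CPM. CSE-/- females had 4.72, 3.30 and 4.46 CPM, CBS-/-(5) 2.52, 2.64 and 5.90, CBS-/-(8) 4.43, 4.10 and 5.25, double deletion 1 3.99, 6.39 and 5.15, and double deletion 2 9.09, 4.96 and 14.3. No library of these 5 strains came near the control, at least 76.8-fold higher by group total in CBS-/-(5) and at least 203-fold higher in double deletion 2. Ordered by mean, each of the 5 overlapped the next. These bounds take the control at 3 counts over the group, and like all count intervals below they cover counting error only.

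Males, which did not choose CG32379, had the same split. Control males held 0.084, 0.223 and 0.408 CPM and MST-/- males 0.309, 0 and 0.524. CSE-/- males were at 3.27, 3.96 and 4.64 CPM, CBS-/-(5) at 3.23, 4.81 and 3.48, and CBS-/-(8) at 4.69, 5.58 and 4.08, so that the lowest of them was several times the highest control. Double deletion 1 had 5.71, 8.28 and 5.71 CPM and double deletion 2 6.57, 7.46 and 6.94, all above the single deletions, although against their own parents the changes of 0.53 to 0.83 on the log2 scale did not pass (adjusted p = 0.105 and 0.148 for double deletion 1 and 0.288 and 0.0715 for double deletion 2, against the CBS-/- parent and CSE-/-). Relative to control the log2 change was 3.99 ± 0.46 (SE, adjusted p = 3.03e-05) in CSE-/-, 3.996 ± 0.46 (7.63e-06) in CBS-/-(5), 4.29 ± 0.45 (1.79e-06) in CBS-/-(8), 4.65 ± 0.45 (6.93e-07) in double deletion 1 and 4.82 ± 0.45 (4.01e-07) in double deletion 2. In MST-/- it was 0.07 ± 0.70 (adjusted p = 0.964). The libraries labelled backcross held 85 and 94 counts, 4.84 above control (adjusted p = 1.14e-07, where 14.6% of genes were called), and 0.02 below double deletion 2 (adjusted p = 0.981). That fit keeps the library of 7321 counts.

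Control thoraxes held 0.063, 0 and 0 CPM of CG32379 in females and 0.06, 0 and 0 in males, and CBS-/-(5) thoraxes 8.30, 7.53 and 11.6 in females and 4.08, 4.38 and 2.10 in males. The groups did not overlap in either sex. The log2 change in male thoraxes was 6.75 ± 0.82 (adjusted p = 0.0208, where 1.85% of genes were called). With the replicate number as a block, which pairs the male thorax libraries, it was 6.91 with an adjusted p of 0.103, and 5 of the 6 fits without 1 library lost the call as well. In female thoraxes it was 6.88 ± 0.97 (adjusted p = 0.154).

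The carboxypeptidase genes beside CG32379 moved differently from it. CG8562 starts 77 bp downstream, and at 42.4 CPM in control females and 68.7 CPM in control males it was never off. It rose in females of CBS-/-(5) (log2 change 1.303, adjusted p = 0.00167), CBS-/-(8) (1.12, 0.00318), double deletion 1 (0.98, 0.00768) and double deletion 2 (1.55, 0.000127), while in CSE-/- females, where CG32379 was on, the change was -0.05 (adjusted p = 0.94). CG8560, 4124 bp downstream, rose in the same 4 groups of females by 1.301 to 2.08 on the log2 scale. CG8563, 342 bp upstream and at 0.249 CPM in control females, passed in CBS-/-(8) males alone (log2 change 1.18, adjusted p = 0.034). Of 16 listed M14 carboxypeptidases, 12 were tested in females, and 7 rose in CBS-/-(5) (58.3% called, all genes 15.2%), 8 in CBS-/-(8) (75.0% called with 1 lower, all genes 24.6%), 7 in double deletion 1 (66.7% with 1 lower, 30.8%) and 10 in double deletion 2 (91.7% with 1 lower, 66.3%). The gene that fell was CG4408. In CSE-/- females 0 were called and in MST-/- females CG3097 rose. In males 8, 9, 4 and 7 of 14 tested rose in the 4 Cbs-lacking strains, among them CG12374 (log2 change 2.54 in CBS-/-(5) males, adjusted p = 2.21e-06), and 1 fell in each (CG8564 in both CBS-/- strains, CG4408 in both double deletions), against 32.7, 32.3, 12.7 and 18.0% of all genes called. CG2915 and CG3097 rose in CSE-/- males, and in MST-/- males CG3097 rose and CG12374 fell. The median over the list was 1.10 in CBS-/-(5) females and 1.56 in double deletion 2 females, against -0.01 and 0.02 for all genes. Under scaling factors computed only from genes not lower in control thoraxes than in control whole bodies (thorax-based factors), which lower the median change of all genes by 0.152 to 0.987 in females and 0.043 to 0.168 in males, 5, 6, 3 and 7 of the 12 rose in females, and CG8562 lost its call in double deletion 1 females (0.45, adjusted p = 0.0702). Summed midgut markers stood at 2220 to 7340 CPM in the 12 Cbs-lacking female libraries and at 1250 to 2990 CPM in the other 9, and at 4090 to 6570 against 2720 to 3390 CPM in males. In CSE-/- flies 0 of 5 midgut markers passed in either sex, and the part of gut RNA in the carboxypeptidase levels was not tested.

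CG11034 (FBgn0031741, 2L:5805395-5809063, plus strand, 8 exons) was highest in the 2 CBS-/- strains, lower in MST-/-, and near the control level in both double deletions. Control females, at 0, 0 and 0.05 CPM, and MST-/- females, at 22.0, 4.61 and 15.4 CPM, are the values that chose it. CBS-/-(5) females had 50.3, 29.6 and 69.0 CPM and CBS-/-(8) females 71.4, 53.4 and 75.2. CSE-/- females held 0.137, 0.390 and 0.501 CPM, double deletion 1 0.133, 0.680 and 0.127, and double deletion 2 0.040, 0.149 and 0.090. The double deletions lay far nearer to CSE-/- than to the CBS-/- lines they were bred from. The count ratio of CBS-/-(5) to double deletion 1 was 146 (95% interval 98 to 228) and that of CBS-/-(8) to double deletion 2 was 746 (344 to 2040). The first ratio makes no allowance for male RNA in double deletion 1 females. Males of that strain held 5.41 to 9.03 CPM.

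In males the gene was on in every strain, and the same 3 strains were highest. Control males had 8.69, 9.15 and 12.2 CPM, CSE-/- 9.81, 10.97 and 14.5, double deletion 1 5.41, 9.03 and 8.08, and double deletion 2 7.57, 9.28 and 6.94, which overlapped. MST-/- males had 27.9, 23.9 and 26.1 CPM, CBS-/-(5) 50.2, 41.6 and 67.0, and CBS-/-(8) 73.7, 46.8 and 67.3. The log2 change was 1.38 ± 0.24 in MST-/- (adjusted p = 0.00345), 2.496 ± 0.24 in CBS-/-(5) (1.06e-06) and 2.70 ± 0.24 in CBS-/-(8) (2.66e-07), and 0.28 (0.525), -0.45 (0.292) and -0.28 (0.456) in CSE-/- and double deletions 1 and 2. Double deletion 1 was 2.94 ± 0.25 below CBS-/-(5) (adjusted p = 5.76e-07, where 36.1% of genes were called) and double deletion 2 was 2.98 ± 0.25 below CBS-/-(8) (8.28e-07, 9.1%). The 2 CBS-/- strains differed by 0.20 ± 0.22 (adjusted p = 0.65, 6.48%) and the double deletions by 0.17 ± 0.25 (0.885, 0.782%). The libraries labelled backcross were at 74.5 and 62.4 CPM, 3.15 ± 0.27 above double deletion 2 (adjusted p = 4.46e-08, 19.6%).

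The difference between the sexes was widest in the strains where females were low. Control males held 406 counts of CG11034 and control females 1. The male to female ratio was 33.9 (22.4 to 54.0) in CSE-/- and 89.0 (40.4 to 244) in double deletion 2. It was 1.1 (1.04 to 1.16) in CBS-/-(5) and 0.913 (0.869 to 0.958) in CBS-/-(8). These ratios make no allowance for female RNA in male libraries. Thoraxes of control males held far less than their whole bodies, 0.12, 0.461 and 0.161 CPM, and those of control females 0, 0.134 and 0.068. Thoraxes of CBS-/-(5) had 32.7, 28.8 and 28.5 CPM in males and 16.3, 37.5 and 43.7 in females. The change in male thoraxes was 6.75 ± 0.35 (adjusted p = 0.00225) and in female thoraxes 8.34 ± 0.75 (adjusted p = 0.0644). Its neighbour CG7239, 1365 bp upstream, changed by 0.57 in CBS-/-(5) males (adjusted p = 0.00974) and 0.62 in CBS-/-(8) males (0.00486). The annotation places a 36-bp remnant of a 1360 transposable element 1080 bp upstream. Of 4 listed relatives, ome was called higher in females of the 4 Cbs-lacking strains, where 15.2 to 66.3% of all genes were called. CG17684 was called lower in females of all 6 deletion strains (all genes, 0.891 to 66.3%). In MST-/- males, where CG11034 passed, 0 of 4 were called (all genes, 1.54%). Under thorax-based factors 0 of the 4 were called higher in CBS-/-(5) and double deletion 1 females and 0 lower in MST-/- females.

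The a5 gene (FBgn0011294, 2L:1329161-1329993, plus strand, 2 exons) was at or near 0 in whole bodies of the 4 Cbs-lacking strains and present in those of CSE-/- and MST-/-. Males chose it. Control males had 10.02, 11.7 and 13.1 CPM, MST-/- 9.27, 5.13 and 12.8, and CSE-/- 15.1, 10.9 and 16.5. The 12 Cbs-lacking male libraries held 1 count in all, in CBS-/-(5). Females, which did not choose it, had less of it and the same split. Control females were at 2.21, 1.79 and 1.35 CPM, MST-/- at 1.40, 1.26 and 2.19 and CSE-/- at 2.33, 1.47 and 1.502, whereas CBS-/-(8) and double deletion 1 were at 0 in every library. CBS-/-(5) females held 2 counts in 1 library and double deletion 2 held 6 counts in 1 library, 0.269 CPM. Group totals were at least 37.7-fold lower than control in CBS-/-(8), at least 43.4-fold lower in double deletion 1 and 20.1-fold lower (9.01 to 56.2) in double deletion 2. The adjusted p was 0.000645 in CBS-/-(5), 0.000234 in CBS-/-(8), 0.000231 in double deletion 1 and 0.000499 in double deletion 2. The fitted change was -0.19 in MST-/- (adjusted p = 0.977) and -0.07 in CSE-/- (0.958). Between Cbs-lacking strains no a5 difference passed, with an adjusted p of 0.792 for CBS-/-(8) against CBS-/-(5) (all genes, 2.38%) and 0.176 for the double deletions (0.607%). These tests set 0 against 2 counts and 6 against 0, too few to tell whether the strains agree.

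Antennal markers were low in the same strains as a5. The 5 listed (a10, Os-C, Orco, lush and Obp83b) were called lower in both sexes of the 4 Cbs-lacking strains, where 15.2 to 66.3% of all genes were called in females and 12.7 to 32.7% in males, and 0 of 5 in MST-/- or CSE-/-. Of 3 further olfactory genes (Orco again, Ir25a and Ir8a), Orco alone of 2 tested passed in females and alone of 3 in double deletion males, Ir8a passed in CBS-/-(5) males too, and all 3 in CBS-/-(8) males. Ir25a stood at 0.434 to 2.29 CPM in Cbs-lacking females and 0.915 to 1.57 in the others. The 3 genes whose log2 CPM over the 14 strain-by-sex groups was most like it, after removing the mean of each sex, were Obp59a (Pearson r = 0.998), Obp83b (0.996) and Obp83a (0.994), all odorant-binding proteins on other chromosome arms. They were found among 12775 genes, and the points share libraries and depth. A list of 6 antennal odorant-binding genes was drawn up after these values were seen and holds all 3, so its level is a description only. Summed over the odorant-binding list, Cbs-lacking males held 0.967 to 2.27 CPM and the other males 51.3 to 140, and females 0.243 to 3.01 against 10.5 to 21.8. Eye genes, also of the head, did not follow: 3 to 6 of 6 were called higher in females of the 4 strains, and in males Rh3 and Rh4 were lower in CBS-/-(8) and Rh4 in double deletion 2. Their sum was 3380 to 5990 CPM in Cbs-lacking males and 4100 to 6500 in the others, and 1090 to 3050 against 743 to 1380 in females. Flight muscle markers (1 to 4 of 5) and midgut markers (0 to 5 of 5) were also called higher in females of the 4 strains. The part of body composition in the eye levels was not tested. In bulk RNA, fewer antennal cells and less RNA per cell cannot be told apart. Of 7 listed phosphatidylethanolamine-binding relatives of a5, 4 were tested in females. CG17919 rose in CBS-/-(5), CBS-/-(8) and double deletion 2, CG7054 in the latter 2 and Pebp1 in double deletion 2, and 0 fell. With thorax-based factors 0 rose in CBS-/-(5), 1 rose in CBS-/-(8) and 1 in double deletion 2. With the same factors 1 was lower in CBS-/-(8) and 2 in double deletion 2. In males Pebp1 rose in the 4 Cbs-lacking strains and CG7054 in all of them but double deletion 1, CG10298 fell in both CBS-/- strains and CG30060 fell in CBS-/-(8).

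Within thoraxes a5 did not separate the strains. Control female thoraxes held 0, 0.067 and 3.88 CPM and CBS-/-(5) 0, 1.92 and 0.470, while control males held 0, 0 and 4.67 and CBS-/-(5) 2.83, 0.107 and 0. The antennal list went with it library by library. It stood at 42.3 and 65.6 CPM in the third control libraries of females and males, and in CBS-/-(5) at 21.6 in the second female and 31.2 in the first male library. Libraries labelled backcross had 10.3 and 1.94 CPM of a5, with 89.8 and 13.0 CPM over the list.

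**Figure D2:**
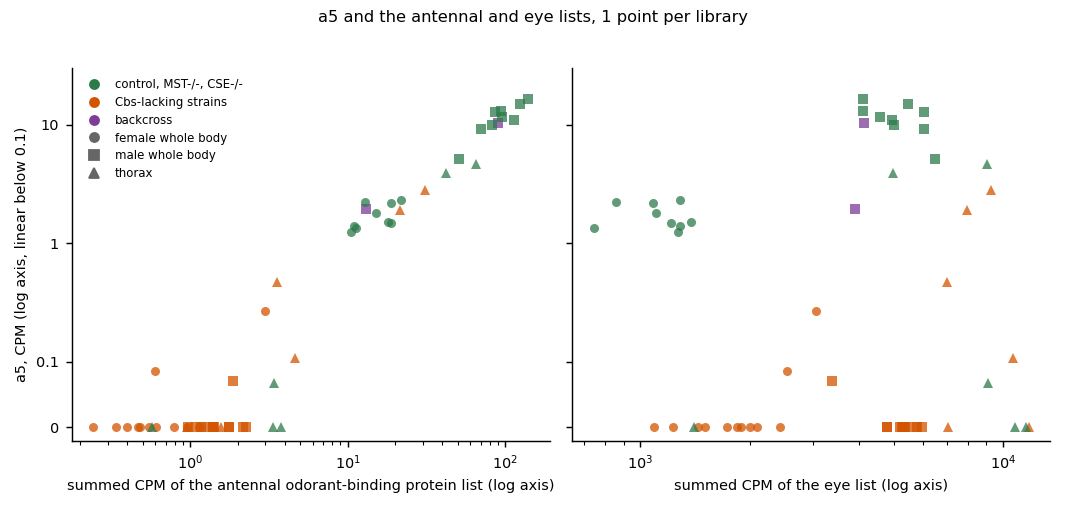
CPM of a5 (y axis, logarithmic above 0.1) against the summed CPM of 6 antennal odorant-binding genes (left) and of eye genes (right), both on log axes, 1 point per usable library. Thoraxes and libraries labelled backcross lie on the same course as whole bodies at left, from 0 to 16.5 CPM of a5, while at right whole bodies of Cbs-lacking strains lie near 0 at eye sums of 1090 to 5990 CPM.

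CG43055 (FBgn0262357, 2L:4411155-4411824, plus strand, 2 exons) was present in control, CSE-/-, MST-/- and both CBS-/- strains and missing from both double deletions, although their parents expressed it. The gene lies within the span of CG15431 on the opposite strand, with no shared exon, and has no role that is sure. In females, which chose it, control held 49.1, 7.87 and 48.9 CPM, CBS-/-(5) 41.7, 45.4 and 20.0 and CBS-/-(8) 47.3, 32.4 and 50.2. MST-/- had 7.15, 3.81 and 1.94 CPM, all below control, and CSE-/- 3.89, 6.16 and 8.24, the last above the lowest control. Double deletion 1 was at 0 in 3 libraries, and double deletion 2 held 1 count in all. Their group totals were at least 829-fold lower than control and 2310-fold lower (413 to 90900).

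In males the levels were higher in most strains. Control males had 124, 146 and 64.5 CPM, MST-/- 38.4, 52.5 and 12.6, CSE-/- 33.4, 52.8 and 39.6, CBS-/-(5) 47.9, 70.6 and 35.1 and CBS-/-(8) 42.7, 23.1 and 55.6. Double deletion 1 held 0.219, 0.274 and 0.209 CPM and double deletion 2 0.077, 0.317 and 0.154, from 1 to 4 counts a library. Relative to control the log2 change was -8.87 ± 0.67 (adjusted p = 3.82e-08) and -9.14 ± 0.70 (4.18e-08). Relative to their own parents it was -7.83 ± 0.67 for double deletion 1 against CBS-/-(5) (6.77e-07), -7.73 for double deletion 2 against CBS-/-(8) (2.56e-06), and -7.50 (4.84e-07) and -7.77 (4.6e-07) for the 2 strains against CSE-/-, where 17.3% and 17.8% of genes were called. Ordered by mean, each of the 5 other strains overlapped the next, and the double deletions differed by 0.27 ± 1.36 (adjusted p = 0.979). Smaller changes stood near the threshold: -1.66 ± 0.41 in MST-/- (adjusted p = 0.0487, lost in 16 of 21 fits without 1 library), -1.41 ± 0.41 in CBS-/-(8) (0.0134, and 0.0655 without control replicate 2 or 0.0974 without CBS-/-(8) replicate 2), -1.37 ± 0.41 in CSE-/- (0.0721) and -1.03 ± 0.40 in CBS-/-(5) (0.0556). Libraries labelled backcross were at 18.8 and 5.44 CPM, 6.08 ± 0.84 above double deletion 2 (adjusted p = 2.29e-05) and 3.01 ± 0.56 below control (0.000564).

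Thoraxes gave CG43055 a contrast that whole bodies did not. It was all but absent from control thoraxes, at 0, 0 and 0.068 CPM in females and 0.06, 0 and 0 in males, and stood at 17.3, 17.6 and 20.2 CPM in CBS-/-(5) females and 26.6, 19.7 and 15.2 in CBS-/-(5) males. The log2 change was 9.28 ± 0.55 in males (adjusted p = 0.0036) and 8.76 ± 0.68 in females (adjusted p = 0.0528). A fit of the 12 male control and CBS-/-(5) libraries, chosen after seeing the data, put the change in thoraxes 10.52 ± 0.79 above that in whole bodies (adjusted p = 0.000507, where 16 of 12992 genes or 0.123% were called). For CG11034 this difference was 4.40 ± 0.46 (adjusted p = 0.00746) and for CG32379 2.93 ± 1.05 (0.359). For a5 in females it was 4.29 ± 2.44 (0.696, where 0.00929% of genes were called). The genes most like CG43055 over whole bodies were Cyp4p1 (r = 0.954), lectin-37Da (0.935) and Cth itself (0.858). Cyp4p1, a cytochrome P450, was lowest in the double deletions but still at 4.42 CPM or more in every library, and it was at 97.3 CPM in control male thoraxes.

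In female thoraxes 0 of the 3 genes that passed the filter were called (all genes, 0.0%). At an unadjusted p under 0.05 all 3 passed, as did 597 of the 10153 genes, and DESeq2 called 173 genes with all 3 among them. Without the third control library edgeR called all 3 as well, with adjusted p of 0.0432 for CG32379, 0.0121 for CG43055 and 0.0266 for CG11034. In male thoraxes 3 of 3 were called (all genes, 1.85%), and 2 of 3 with the replicate block. CG13675, a5, CG43659 and CG33640 passed neither thorax filter.

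**Figure D3:**
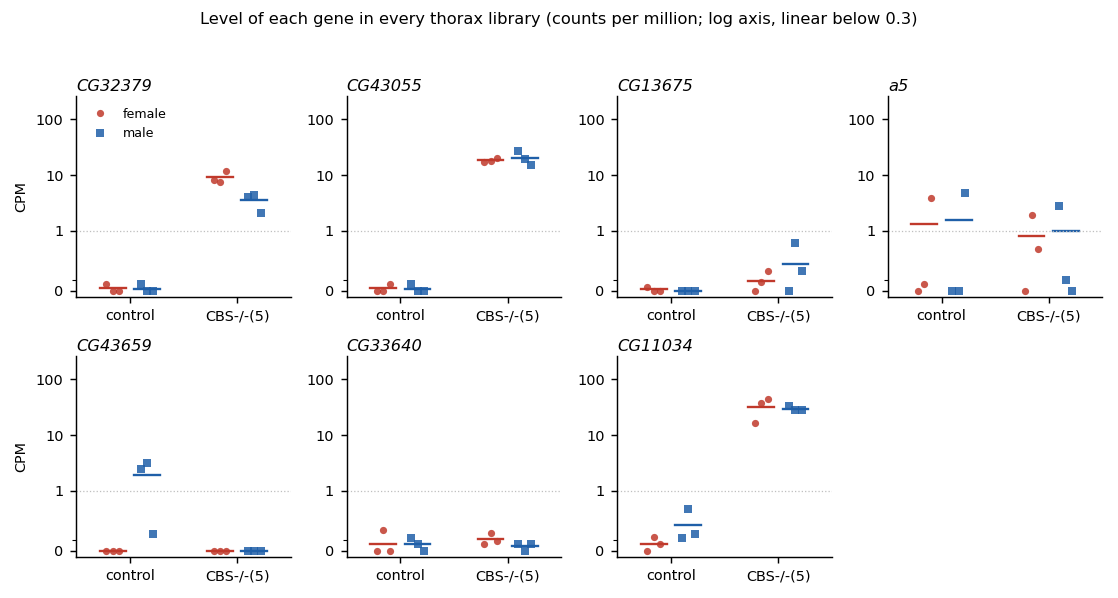
CPM of the 7 genes in the 12 thorax libraries (y axis logarithmic above 0.3 CPM and linear below), control beside CBS-/-(5); circles are female and squares male libraries, short lines group means. CG32379, CG43055 and CG11034 lie at 0.461 CPM or less in every control thorax and at 2.10 CPM or more in every CBS-/-(5) thorax.

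CG33640 (FBgn0053640, 2L:13527841-13528537, plus strand, 2 exons) was transcribed in the double deletions and off in every other strain, both parents included. It lies inside the span of B4 on the opposite strand, at the head of a row of like-named genes, and a copy of the Transpac transposable element is annotated 280 bp upstream. In males, which chose it, double deletion 1 had 5.92, 6.77 and 5.58 CPM and double deletion 2 4.25, 2.38 and 6.63, and the other 15 libraries had at most 0.206 CPM. Group totals were at least 81.5-fold and at least 59.3-fold higher than control. Double deletion 1 females had 1.06, 0.416 and 1.48 CPM and double deletion 2 females 1.00, 1.19 and 1.17, while control and MST-/- females were at 0 and the CSE-/-, CBS-/-(5) and CBS-/-(8) groups held 1, 1 and 3 counts. These were at least 20.4-fold and at least 23.6-fold higher than control (adjusted p = 0.000338 and 9.57e-05). Relative to the CBS-/- parent the count ratio was 71.9 (12.5 to 2880, adjusted p = 0.00151, where 3.72% of genes were called) in double deletion 1 and 23.4 (7.71 to 116, adjusted p = 0.00315, 5.41%) in double deletion 2. Relative to CSE-/- the adjusted p was 0.000917 (10.8%) and 0.000254 (47.3%), and the double deletions differed by 0.23 ± 0.47 (0.722). Libraries labelled backcross held 2 counts each, and thoraxes at most 0.201 CPM.

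The next 2 genes were higher with CG33640. CG33641, 505 bp downstream, was at 6.30 and 4.98 CPM in males of double deletions 1 and 2 and at 0.103 CPM in control males (adjusted p = 5.01e-06 and 1.04e-05), and its pattern over the 14 groups was the most like CG33640 (r = 0.994). CG33642, 1438 bp downstream, was at 1.54 and 1.19 CPM (lowest library 0.238 CPM, in double deletion 2) against 0 in control males (adjusted p = 0.000789 and 0.00141), and r was 0.988. Near 0 in control males, CG33641 and CG33642 passed the filter through groups where they are high, so their p-values only set the difference against replicate spread. Both passed in females of the double deletions too. Beyond them CG33643, at 0 in controls of both sexes and at 0.26 and 0.181 CPM in males of the double deletions, did not pass the filter. B4 changed by -0.45 (adjusted p = 0.00676) and -0.61 (0.000289) in the females. Whether 1 longer transcript gives the counts of the 3 genes cannot be told from gene totals.

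CG43659 (FBgn0263707, 2R:23079380-23079715, minus strand, 1 exon) was on in control and MST-/- males and at 0 in all 15 male libraries of the other 5 strains. Control males had 7.52, 9.75 and 6.87 CPM and MST-/- males 3.19, 6.41 and 5.77, which did not overlap. Group totals were at least 103-fold lower than control in double deletion 2 and at least 122-fold lower in CSE-/-, the strains that chose it. In females the gene was low: control held 4, 0 and 7 counts, or 0.181 ± 0.176 CPM (n = 3), MST-/- 2 counts in all, and the other 5 strains at most 1. The control library at 0 overlapped them all, and no test was made. Control male thoraxes had 2.47, 3.16 and 0.161 CPM against 0 in CBS-/-(5), at least 34.0-fold, and female thoraxes were at 0. Libraries labelled backcross held 1 count.

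The gustatory receptor gene Gr59a, 846 bp away on the other strand, had the pattern most like CG43659 (r = 0.987). It was at 1.03 CPM in control males and 0.573 in MST-/- (log2 change -0.77, adjusted p = 0.376), and lower in CSE-/- (adjusted p = 0.000375), CBS-/-(5) (0.000284), CBS-/-(8) (0.000156), double deletion 1 (9.86e-05) and double deletion 2 (0.000161), at 0.0218 to 0.0464 CPM. Near 0 in those strains, Gr59a passed the filter through groups where it is high, so its p-values only set the difference against replicate spread. Art7, 342 bp on the other side, passed in no comparison with control.

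CG13675 (FBgn0035845, 3L:8160315-8165518, minus strand, 5 exons) was on in males of every Cbs-lacking strain and in no other main group. Double deletion 1 males had 8.27, 7.53 and 7.67 CPM and double deletion 2 males 5.41, 3.81 and 8.02, which chose it, and CBS-/-(5) and CBS-/-(8) males had 11.02, 3.42 and 7.86 and 9.09, 6.34 and 6.47. Control, MST-/- and CSE-/- males had at most 0.206 CPM. The count ratio to control was 57.8 (22.2 to 214) to 78.3 (30.3 to 289). Females of all 7 strains held 3 counts or fewer a group, and the male to female ratio was 186 (63.3 to 909) in CBS-/-(5) and 284 (77.9 to 2350) in double deletion 1. Male thoraxes of CBS-/-(5) held 0, 0.588 and 0.191 CPM, less than any whole body of that strain, and control ones 0. Libraries labelled backcross, with Cbs present, had 3.74 and 13.7 CPM. The nearest gene, CG43886 at 541 bp, changed in females of double deletions 1 and 2 (log2 change 1.28 and 1.27, adjusted p = 0.0321 and 0.016), and in males, where CG13675 was on, it did not pass the filter.

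Genes so completely split were rare. Off in 1 strain and at 5 CPM or more in every library of another were 8 of 8264 genes in females (0.0968%), with CG43055 and CG11034 among them, and 20 of 10589 in males (0.189%), with CG13675, a5, CG43659 and CG33640. CG32379 fell just outside, since the lowest library of double deletion 2 females was at 4.96 CPM, and CG33640 just inside, with 5.58 CPM in double deletion 1 males. Between control and MST-/- 0 genes were split in either sex, and CG11034, off in control females, missed only through the MST-/- female library at 4.61 CPM. In males 0 were split between CBS-/-(5) and CBS-/-(8) and 1 between the double deletions, and control differed from CSE-/- in 1, from the CBS-/- strains in 5 and 9 and from the double deletions in 11 and 7. In females the 2 CBS-/- strains were split in 2 genes, Ser12 and gNacalpha, and the double deletions in 0, and control differed from CBS-/-(5) in 2, from CBS-/-(8) in 6 and from the double deletions in 2 and 3.

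The genes that divide the strains exactly as a member does, with every high library over 4 times every low one, were counted after seeing the data. In females CG32379, CG43055 and CG11034 each stood alone among 10552 genes. In males CG32379 was joined by Pp1-Y1 and CG43055 by CG31819, also on 2L, among 13032 genes. CG13675 had 4 companions in males, GstD5, CG16898, CG33468 and lncRNA:CR44138, on other arms. In females, where CG13675 itself was off, 3 genes of 3L took its split. Of these, tut lies within 50 kb of it and CG13313 within 1 Mb. The a5 split had 14 genes in males, a5 included, among them Cbs itself, the larval storage protein gene Lsp1alpha, 5 odorant-binding genes (Obp83a, Obp83b, Obp19a, Obp59a and lush), Os-C and a10. In females, which did not choose a5, the split had 4 genes: a5, Cbs, Obp83a and lncRNA:CR43837.

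Of 151 genes within 50 kb of a member, 85 were tested in females and 119 in males. In females 4 were called in CSE-/- (4.71%), 14 in CBS-/-(5) (16.5%), 19 in CBS-/-(8) (22.4%), 29 in double deletion 1 (34.1%) and 52 in double deletion 2 (61.2%), beside 2.73, 15.2, 24.6, 30.8 and 66.3% of all genes. In males 4 (3.36%), 43 (36.1%), 45 (37.8%), 10 (8.4%) and 12 (10.1%) were called in the same order, beside 3.71, 32.7, 32.3, 12.7 and 18.0% of all genes, and 0 in MST-/- of either sex. In thoraxes 0 of 81 in females and 1 of 100 in males passed.

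**Figure D4:**
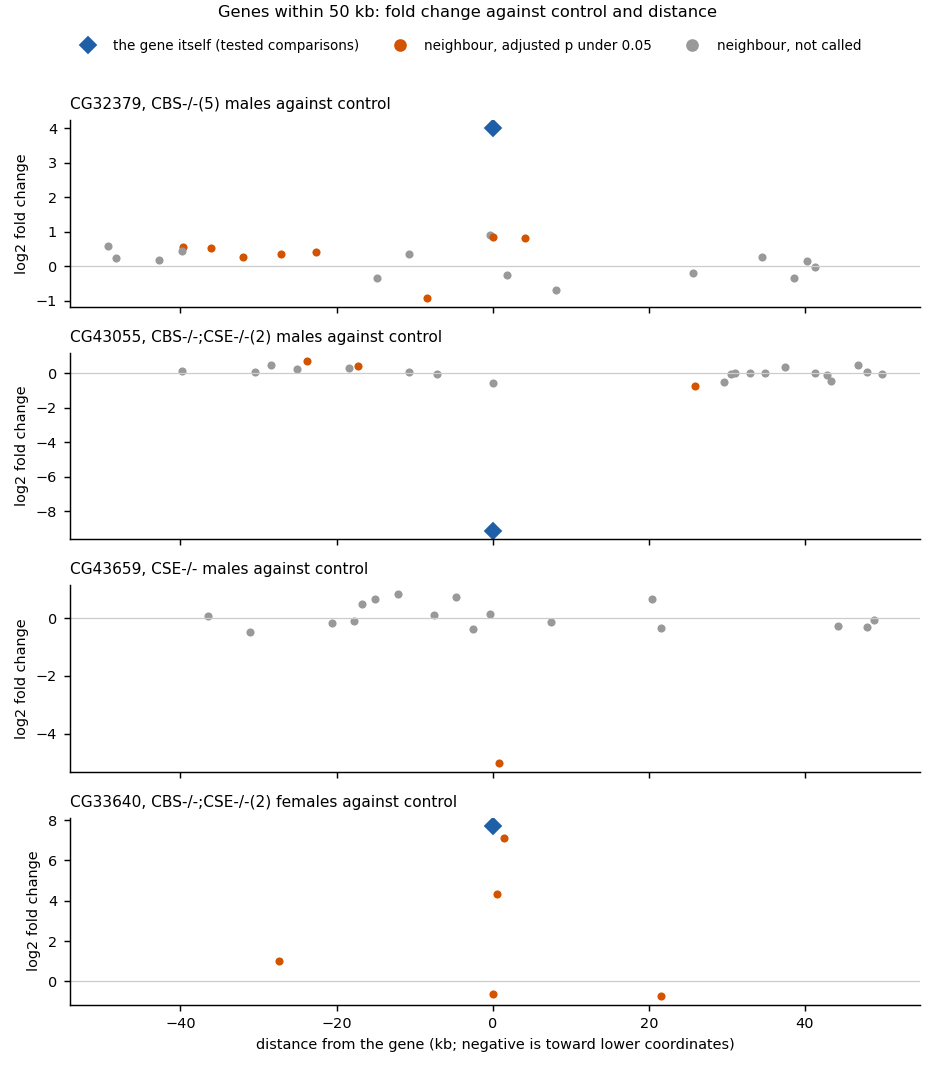
Fold change against control (log2, edgeR) of genes within 50 kb of 4 members, by distance from the member in kb; orange points passed at an adjusted p under 0.05, grey points did not, and the blue diamond is the member where it was tested. Beside CG43659 the gene at 0.846 kb (Gr59a) stands apart, beside CG33640 the genes at 0.505 and 1.438 kb do, and beside CG32379 and CG43055 no neighbour reaches the member's change.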

How the data were processed

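RNA from whole flies and thoraxes was sequenced as single-end reads from a strand-marking kit. According to the submitters' processing notes, reads were checked with FastQC, trimmed with Trimmomatic 0.38, mapped with STAR 2.5.0a and counted with featureCounts 1.5.0-p1, and the study gives dm6. Whether counting used strand is not given in the sources used here. The deposited files hold whole-number read counts per gene, made by the authors without normalization. Rows that name no gene were left out and held 4.72 to 57.1% of reads, those on several genes 3.34 to 31.3%. No 2 of the 57 libraries had identical counts.

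CPM were computed from the gene total. Genes were filtered with filterByExpr (minimum count 10, minimum total 15), scaled by TMM and tested by edgeR 4.0.16 quasi-likelihood fits (R 4.3.3), 1 fit per sex and tissue with 1 mean per group, and a fit of 24 male libraries for the backcross. Ratios of group totals carry exact 95% intervals for counting error, and a total of 0 was set to 3 counts. Members and lists were chosen with earlier results of these data known. The genes named are the members, the deleted genes, the 3 most similar genes per member (log2 of mean CPM + 0.5), called genes within 50 kb with the nearest on each side, and family relatives, here from a hand-written list since no proteins were given. Promoters and sequences were not used here. Positions are from Ensembl release 115. Alternatives were DESeq2 1.42.0, upper-quartile factors, TMM computed only on genes whose mean CPM in control thoraxes was not below that in control whole bodies (thorax-based factors), other filters, 2-group fits, a replicate block, and leaving out each library. Same-numbered libraries deviated together in male thoraxes (3 pairs, r 0.135 to 0.439) and not throughout the other sets. No label pairs them beyond the number, and the main fits, male thoraxes included, had no block. The tests were checked on simulated counts.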

Additional observations from a re-analysis of the deposited data

Results flagged for a closer look

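In males, the change of CG43055 between CBS-/-(5) and control differed between tissues: the log2 change in thoraxes exceeded that in whole bodies by 10.522, because whole bodies of control males held 64.5 to 146 CPM and control thoraxes at most 0.06 CPM. The change of CG11034 was also larger in male thoraxes, by 4.401, as control whole bodies held 8.69 to 12.2 CPM and control thoraxes at most 0.461 CPM. Both differences were found with an interaction term added after seeing the data. The second lost its call without CBS-/-(5) male whole-body replicate 1 (4.37, adjusted p = 0.0512), and over the fits without 1 library the values ran from 9.85 to 12.7 for CG43055 and from 3.98 to 5.00 for CG11034.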

How the results depend on the processing

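Over the single fold changes, 1837 of 1902 fits without 1 library, 86 of 94 with DESeq2, 89 of 90 with upper-quartile factors and 98 of 100 with a replicate block kept direction and call. Member calls against control were 6 in females and 12 in males. Without 1 library they ran from 6 to 6 and from 10 to 14, in thoraxes from 2 to 6 (main count 3), between strains from 6 to 7 in females and 6 to 8 in males, for the libraries labelled backcross from 5 to 5, for neighbours from 186 to 279 (main count 233) and for relatives from 99 to 119 (main count 113). Thorax calls were 6 with DESeq2 and 5 without a filter. Asking for 10 counts in every library left 3 calls in males against control and 3 between strains, as it removes genes that are off. Only the 2 groups compared gave 3 calls for the backcross. Windows of 20 and 200 kb held 98 and 702 neighbour calls. Counts of on-off genes were 22 in females and 55 in males at 2 CPM, and 10 in males at 10 CPM. Of the 21 most similar genes 5 were shared under Spearman correlation. With the replicate block, member calls were 6 in females, 13 in males, 2 in thoraxes, 6 and 7 between strains and 5 for the backcross. CG43055 in CBS-/-(5) males gained its call with it (adjusted p = 0.048). Libraries of different groups share only a number in every set, and outside male thoraxes r ran from below 0 to above it (female whole bodies, r -0.496 to 0.848, male whole bodies -0.735 to 0.586, female thoraxes -0.254 to 0.511).

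Differences near 0 changed sign. CG32379 in libraries labelled backcross against double deletion 2 was 0.13 with DESeq2, 0.07 with thorax-based factors, 0.019 without a filter and 0.06 with 2 groups, and without 1 library ran from -0.12 to 0.13. CG33640 between the double deletions was -0.20 with thorax-based factors and ran from -0.14 to 0.64. The ranges were -0.31 to 0.12 for a5 in CSE-/- females, -0.89 to 0.81 for CG32379 in MST-/- males, and -0.91 to 0.065 for CG43055 and -0.048 to 0.29 for CG11034 between the double deletions in males. The cause was not tested. Calls that rested on single settings were CG43055 in MST-/- males (adjusted p = 0.0634 with upper-quartile factors, 0.0604 without a filter, 0.0555 with 2 groups) and in CSE-/- males (gained at 0.0372 with DESeq2, 0.0437 with thorax-based factors, 0.0124 with 2 groups). CG11034 in double deletion 1 against CSE-/- males was -0.72 (adjusted p = 0.0464), lost in 13 of 21 fits without 1 library. Thorax-based factors moved the share of higher calls from 52.0% to 12.2% in double deletion 2 females and from 67.5% to 15.7% in CBS-/-(8) females. Upper-quartile factors were not run for the backcross, since that quartile is 0 in the library of 7321 counts. Promoter motifs were not run. Depth limits levels near 3 counts a library, 0.0949 to 0.309 CPM.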
